A study of Mus musculus with 27 samples.

Results

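p53 is a transcription factor that is held at a low level in unstressed cells and accumulates after DNA damage or other stress. It then switches on genes that stop the cell cycle, trigger death, repair DNA, and, through Mdm2 and Ppm1d, shut p53 itself down again. Rb1 and its relative p107 hold E2F factors in check and so limit DNA replication, and cells without Rb1 are known to engage p53 in some tissues. In the foetal liver at mid-gestation most cells are red cell precursors.

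The genes described here are p53 (Trp53) and 29 of its known targets and feedback regulators. They were named by symbol and not by a cut-off on measured values, but with earlier results of these data known. Of these 30 genes, 28 were named on a probe set, and 26 passed the filter on brightness out of 10916 genes that passed among 18193 in all. Trp53 itself and Bax, a pore-forming death protein, were not analysed here, since no probe set used carried their name. Tnfrsf10b and Plk3 were dimmer than the filter threshold of 99.4, with mean signals of 37.0 and 66.6. The dimmest genes above the threshold were Eda2r at 119.4, Fas at 125.7 and Epha2 at 135.9. All values are transcript levels, and p53 protein and its activity were not measured.

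The RNA came from mouse liver cells at embryonic stage E14.5, untreated and cultured in serum-containing medium for 0, 24 or 48 h, and was hybridised to Affymetrix arrays. The genotypes were wild type (WT), p107KO, which lacks p107, encoded by Rbl1, Rb1KO, which lacks Rb1, and DKO, the double knockout. At 0, 24 and 48 h there were 3, 2 and 2 WT arrays, 2, 2 and 1 p107KO arrays, 5, 4 and 2 Rb1KO arrays, and 2, 1 and 1 DKO arrays. The sources used here give neither the altered part of either gene nor the number of embryos behind an array, so p-values measure the spread between these arrays, which may be technical.

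Promoter sequences are shown first because the members are linked by p53 binding. p53 binds as a tetramer to response elements built from paired copies of a 10-letter consensus, named here the p53 decamer. RefSeq promoter windows, running from 250 bases before to 50 bases after a start site in build GRCm38.p6, were found for 22 of the 30 members. A p53 decamer without mismatch lay in the windows of 10 of these 22 (45.5%), against 9.55% of all 27025 genes with a window. The consensus reads the same on both strands. The members were Trp53, Bax and the 8 below, each shown on the gene's own strand with the decamer in capitals and up to 10 bases on either side.
Mdm2, chr10:117710925-117710954, minus strand, decamer from position -186: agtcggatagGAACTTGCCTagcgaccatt
Ppm1d, chr11:85311112-85311141, plus strand, decamer from position -132: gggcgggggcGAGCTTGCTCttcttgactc
Ccng1, chr11:40755452-40755481, minus strand, decamer from position -185: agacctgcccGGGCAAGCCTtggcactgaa
Aen, chr7:78895927-78895956, plus strand, decamer from position -121: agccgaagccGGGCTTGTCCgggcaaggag
Ei24, chr9:36797335-36797354, minus strand, decamer from position -10: cgtgcggcccGGGCATGCCC
Gadd45a, chr6:67037428-67037457, minus strand, decamer from position -40: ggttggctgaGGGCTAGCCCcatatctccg
Sesn1, chr10:41887256-41887285, plus strand, decamer from position -173: cttggccttcAAGCTTGTTTttgctggcct
Polk, chr13:96519399-96519428, minus strand, decamer from position -231: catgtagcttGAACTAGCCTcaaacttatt

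Positions count back from the start site, with -1 the base just before it. The windows shown for Aen, Ccng1, Sesn1 and Polk belong to start sites inside the gene's annotated span. Counted from the first start site of Aen, its decamer begins at base 11 of the transcript. Ccng1 and Mdm2 are textbook targets of direct p53 binding. A match describes these letters only and was not compared with any measured binding, and p53 elements outside these windows, such as the intronic element of Mdm2, were not searched. The E2F words TTTCGCGC, TTTGGCGC, TTTCCCGC and TTTGCCGC, searched on both strands, occurred in the windows of 0 of the 22 members and of 2.6% of all genes.

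The full 250 bases before the start are shown for the pair of members whose levels separated the arrays by Rb1 label at every time, in opposite directions, as given below, with the decamer again in capitals. Ppm1d lies on the plus strand at chr11:85311004-85311253 and Gadd45a on the minus strand at chr6:67037408-67037657.
Ppm1d: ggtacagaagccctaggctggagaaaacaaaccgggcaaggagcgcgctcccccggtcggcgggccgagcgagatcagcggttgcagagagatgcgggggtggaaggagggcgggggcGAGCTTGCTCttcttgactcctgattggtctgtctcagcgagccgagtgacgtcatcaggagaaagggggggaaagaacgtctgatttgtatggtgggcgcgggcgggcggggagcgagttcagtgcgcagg
Gadd45a: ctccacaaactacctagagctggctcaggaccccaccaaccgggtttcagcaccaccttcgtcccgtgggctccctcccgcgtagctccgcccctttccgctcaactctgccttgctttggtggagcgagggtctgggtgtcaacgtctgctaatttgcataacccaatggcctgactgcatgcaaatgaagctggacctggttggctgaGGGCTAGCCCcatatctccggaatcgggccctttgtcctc

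The arrays were checked before the members were compared. Rbl1 signal was 70.3 to 167.5 on all p107KO and DKO arrays, against 798.0 to 1745.5 in WT. Rb1 signal at 0 h was 6143.8 to 7105.4 in WT and 1507.1 to 2825.3 in Rb1KO. At 48 h it was 5745.6 and 6583.2 in WT, 4207.2 and 5452.8 on the arrays labelled Rb1KO, and 5993.6 on the array labelled DKO, so the Rb1 probe set does not check those 48 h labels. Of the arrays, 4 had been picked in an earlier look at these data as standing apart. They were Rb1KO 0 h replicate 5 and the first replicate of the 24 h groups of p107KO, Rb1KO and DKO. The 0 h array had a median correlation of 0.967 with arrays of its time, against 0.974 or more for the others. Those at 24 h had 0.95, 0.937 and 0.954, against 0.957 to 0.965 for the others at 24 h, so the DKO array differed little. WT 48 h replicate 2, at 0.953, was not picked. Y-linked genes gave signal on 4 of 4 DKO arrays, 3 of 11 of the Rb1KO ones, 2 of 5 of the p107KO ones and 0 of 7 from WT, so the number of these Y-positive arrays moves with genotype. Erythroid markers stayed bright on all arrays, with a mean log2 level of 12.57 to 13.77, and hepatocyte markers were bright at 0 h (14.03 to 14.58). In these bulk samples fewer cells of a type and less RNA per cell cannot be told apart.

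In fresh cells lacking Rb1, 2 death genes of the p53 programme, Trp53inp1 and Bbc3, were higher than in WT, and no tested member was called lower. Trp53inp1 encodes a stress protein that promotes p53-dependent death, and Bbc3 encodes Puma, a BH3-only protein that inhibits the pro-survival members of the Bcl-2 family. The 2 members called of 26 (7.69%), both higher, compare with 0.614% of all genes called at 0 h, 0.54% higher and 0.0733% lower. A call throughout is a limma adjusted p under 0.05, and a log2 change is the difference of mean log2(signal + 32).

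At 0 h, Trp53inp1 signal was 444.8, 440.2 and 413.8 on the WT arrays and 1449.4, 1141.5, 1048.2, 1096.1 and 1389 on the Rb1KO arrays. Every Rb1KO array lay above every WT array. The log2 change was 1.42 ± 0.15 (SE), or 2.68-fold, with a limma adjusted p of 1.19e-05. Its second, dimmer probe set gave 1.22 ± 0.27. Bbc3 signal was 348.5, 448.2 and 382.6 in WT and 1183, 732.5, 716.1, 1483.1 and 752.8 in Rb1KO, again with no overlap. The log2 change was 1.19 ± 0.21, or 2.27-fold (limma adjusted p = 0.00573). Without WT 0 h replicate 1 the adjusted p for Bbc3 was 0.0702, and with a fit on the compared groups alone it was 0.0729.

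Other members moved less at 0 h and none of them passed the threshold over all genes. Polk, a translesion polymerase, gave 0.64 ± 0.18 (limma adjusted p = 0.193). Ccng1, the p53-induced cyclin G1, gave 0.55 ± 0.18 (limma adjusted p = 0.3). Ppm1d, the Wip1 phosphatase that switches p53 signalling off, gave 0.46 ± 0.15 (limma adjusted p = 0.338). Gadd45a, a growth arrest and repair protein, gave -0.37 ± 0.15 (limma adjusted p = 0.572). Mdm2, the ubiquitin ligase that degrades p53, gave 0.16 ± 0.19 with an interval of -0.24 to 0.57. Over the 26 members the median log2 change was 0.09, beside -0.04 over all genes, and 15 members were positive and 11 negative.

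**Figure D1:**
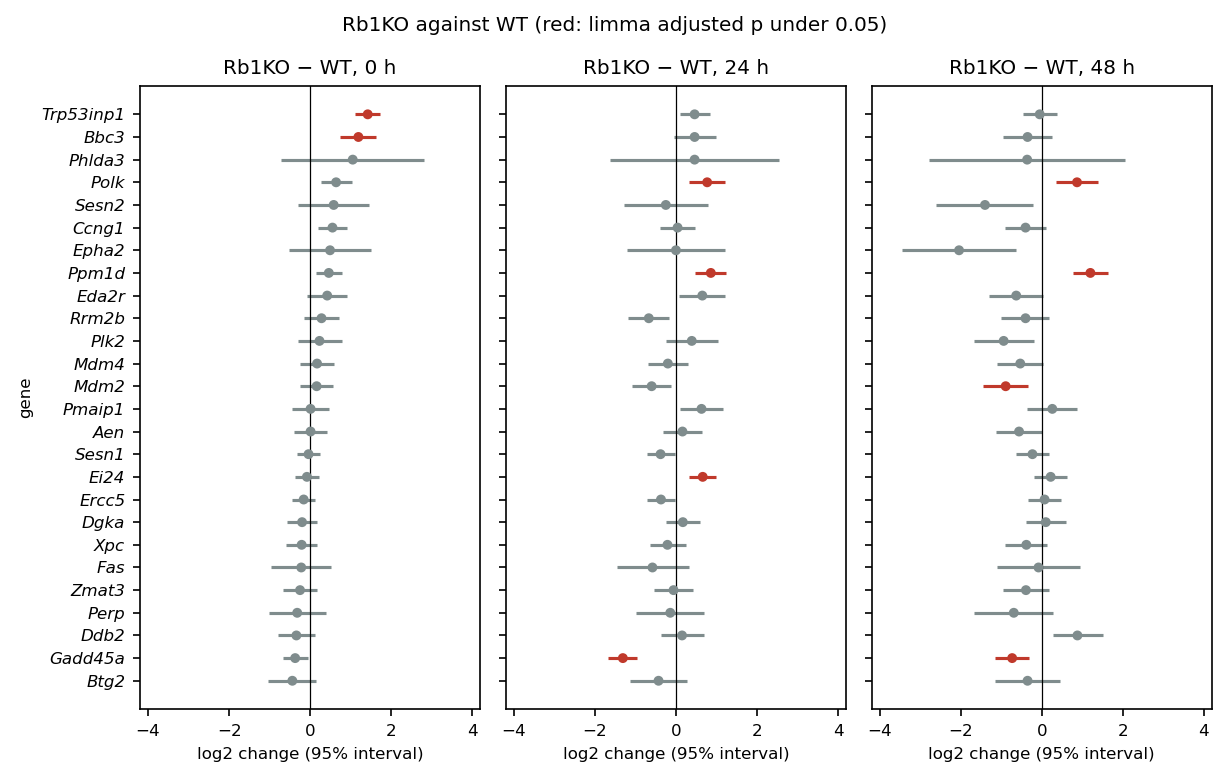
Log2 change of each tested member in Rb1KO against WT (horizontal axis, points with 95% intervals from the limma fit) at 0, 24 and 48 h, with red points for limma adjusted p under 0.05. Trp53inp1 and Bbc3 are red at 0 h only, Ppm1d and Polk are red on the right and Gadd45a on the left at 24 and 48 h, Ei24 is red at 24 h, and Mdm2 is red at 48 h on the left.

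After 24 h in culture Ppm1d, Polk and Ei24 were higher in Rb1KO than in WT and Gadd45a was lower, while Trp53inp1 and Bbc3 did not pass the threshold. These are 4 of 26 members (15.4%) against 7.77% of all genes, 4.2% higher and 3.56% lower. At 48 h Ppm1d and Polk were higher and Gadd45a and Mdm2 were lower, again 4 of 26, against 10.4% of all genes, 7.48% higher and 2.93% lower. The median change over the members was 0.02 at 24 h (all genes -0.07) and -0.37 at 48 h (all genes -0.09), with 19 of 26 members negative at 48 h.

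Among feedback regulators, Ppm1d had the most stable difference. At 24 h its signal was 3257.9 and 2597.2 in WT and 6577.7, 4248.3, 4592.4 and 6156 in Rb1KO, a log2 change of 0.86 ± 0.18 (1.81-fold, limma adjusted p = 0.00444). At 48 h it was 1705.3 and 2193.8 in WT and 4433.5 and 4534 on the arrays labelled Rb1KO, a change of 1.2 ± 0.21 (2.3-fold, limma adjusted p = 0.000434). Both WT arrays were lower at 48 h than at 24 h, as given with the second culture step. The groups did not overlap at either time. The 48 h call held in all 12 alternative settings and with each of the 4 arrays left out. At 24 h it was lost without WT 24 h replicate 2 (adjusted p = 0.119) and in the fit on the compared groups alone.

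Mdm2 went the other way at 48 h. Its signal was 4648.5 and 5600.7 in WT against 3724 and 2002.6 in Rb1KO, a change of -0.89 ± 0.27 (limma adjusted p = 0.0318). The Rb1KO arrays differed from each other by more than the WT arrays did. The call was lost without either WT array or Rb1KO replicate 2, where the adjusted p reached 0.523, and with Y-linked signal as a covariate. A second Mdm2 probe set gave -0.68 ± 0.22. In Rb1KO minus WT, Mdm4, the non-degrading partner of Mdm2, passed the threshold at no time on its brightest probe set. At 48 h this probe set gave -0.53 ± 0.28, while a dimmer one gave -1.01 ± 0.28.

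Among growth arrest genes, Gadd45a was the only tested member called lower at 24 h. Its signal was 30138.7 and 26597 in WT and 12797, 10044.4, 11475 and 11334.8 in Rb1KO, so all 4 Rb1KO arrays were well under both WT arrays. The log2 change was -1.31 ± 0.18 (limma adjusted p = 5.25e-05), and this call held in all 12 settings and all 6 leave-outs. At 48 h it was 37313.9 and 41444.5 in WT and 23085.2 and 24234.4 in Rb1KO, a change of -0.73 ± 0.20 (limma adjusted p = 0.0216). That call was lost with any of the 4 arrays left out, with adjusted p up to 0.152.

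Among repair and death genes, Polk and Ei24 were higher. Polk signal at 24 h was 742 and 733.3 in WT and 1241.5, 1190, 1073 and 1672.9 in Rb1KO, a change of 0.77 ± 0.22 (limma adjusted p = 0.0303). At 48 h it was 769.7 and 770.7 in WT and 1363.7 and 1508.7 in Rb1KO, a change of 0.87 ± 0.25 (limma adjusted p = 0.0246). The Polk arrays were well separated at both times, although both calls depended on single arrays: at 24 h either WT array or Rb1KO replicate 4, at 48 h any of the 4, with adjusted p up to 0.174 and 0.186. A dimmer Polk probe set gave 0.65 ± 0.25 at 24 h and 0.18 ± 0.29 at 48 h. Ei24, a p53-induced protein of the endoplasmic reticulum, was 5569.8 and 6164.1 in WT and 11891, 8699.7, 7532 and 9456.7 in Rb1KO at 24 h. Its change was 0.66 ± 0.17 (limma adjusted p = 0.0162), lost without either WT array (up to 0.161).

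Markers of other cell types also differed between these genotypes. At 0 h 1 of 7 erythroid markers, Epor, was lower in Rb1KO, and the megakaryocyte list had a median log2 change of -0.55 with none of its 6 genes called. At 24 h 1 of 5 mast cell markers, Hdc, was lower, and the list medians were -0.75 for mast cells, -0.58 for megakaryocytes and -0.46 for neutrophils. At 48 h 2 of 10 hepatocyte markers were lower, with a median of -1.29. Averaged over the times, 5 of 6 megakaryocyte and 1 of 10 hepatocyte markers were lower in Rb1KO, beside 8.66% of all genes. In DKO minus p107KO averaged over the times, 5 of 10 hepatocyte and 1 of 6 megakaryocyte markers were lower, beside 2.64% of all genes. The hepatocyte median there was -1.28, beside -0.06 over all genes. The part of these cell types in the members' differences was not tested. Without the 4 arrays that stand apart the members called in Rb1KO minus WT were 2, 5 and 6 at 0, 24 and 48 h. The share of all genes called in that setting is not given here, so these counts are not a result about the members.

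The Trp53inp1 and Bbc3 differences of fresh cells were smaller in culture. For Trp53inp1 the Rb1KO minus WT change fell from 1.42 at 0 h to 0.46 ± 0.18 at 24 h and -0.05 ± 0.21 at 48 h. Tested as an interaction, the shift from 0 h to 48 h was -1.47 ± 0.25 (limma adjusted p = 0.00149) and that from 0 h to 24 h was -0.96 ± 0.23 (limma adjusted p = 0.0497). The 48 h shift held with each of 12 arrays left out, and among 12 settings was lost only when Y-positive arrays were left out (0.0672). The 24 h shift lay at the threshold and was kept in 4 of 12 settings and 2 of 14 leave-outs. For Bbc3 the change went from 1.19 to 0.46 ± 0.25 and -0.35 ± 0.29, a shift to 48 h of -1.53 ± 0.36 (limma adjusted p = 0.0172). It was lost without WT 48 h replicate 1 or 2 or Rb1KO 48 h replicate 2, where the adjusted p reached 0.125. Members whose shift was called were 1 of 26 from 0 to 24 h (0.834% of all genes, 0.513% downward and 0.321% upward) and 2 of 26 from 0 to 48 h (3.53% of all genes, 0.843% downward and 2.68% upward), all downward.

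Both genes rose with culture in each genotype, and at 48 h neither was called in Rb1KO minus WT. At 48 h Trp53inp1 was 10666.5 and 14655.2 in WT and 13119.2 and 11138.8 in Rb1KO, with overlapping arrays. At that time Bbc3 was 7322 and 6573.8 in WT, 5911.8 and 5030.5 in Rb1KO, 9819.9 in p107KO and 3347.9 in DKO, so the arrays labelled as lacking Rb1 were the lower ones. Signals split by Rb1 label in this way for 31.8% of all genes at 48 h, 16.2% of them in this direction. For the genes called at 24 or 48 h no shift from 0 h passed the threshold: that of Gadd45a to 24 h was -0.94 ± 0.23 (limma adjusted p = 0.0579), that of Mdm2 to 48 h was -1.06 ± 0.33 (0.0832) and that of Ppm1d to 48 h was 0.74 ± 0.26 (0.142).

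**Figure D2:**
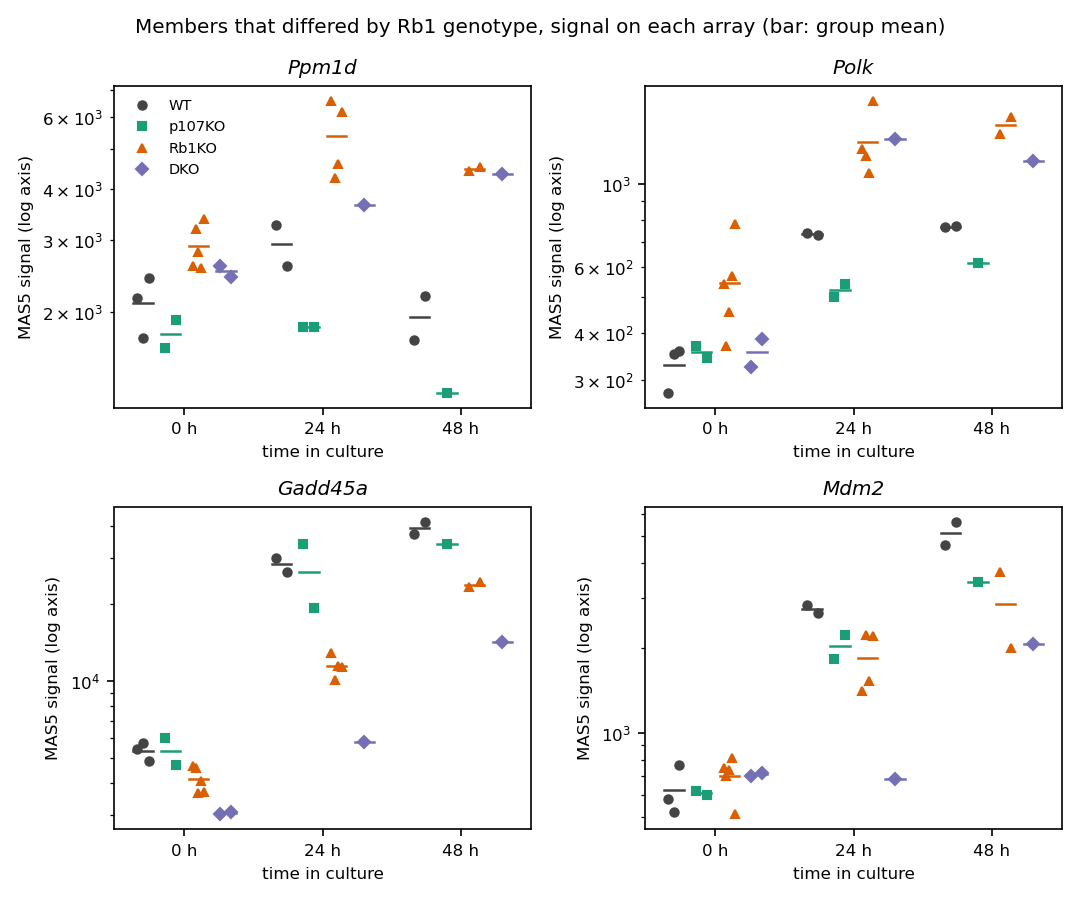
MAS5 signal of Ppm1d, Polk, Gadd45a and Mdm2 on each array (vertical log axis) by culture time, with 1 point per array coloured by genotype and a bar at the mean of the group's signals. Ppm1d is higher and Gadd45a lower on every array labelled Rb1KO or DKO than on every WT or p107KO array at each time, narrowly at 0 h. Mdm2 overlaps at all 3 times.

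Rb1 loss was compared again in DKO against p107KO, on arrays that the Rb1KO and WT groups do not share, with each gene's spread from the same fit. At 0 h 0 of 26 members passed the threshold (0.119% of all genes did, 0.0824% higher and 0.0366% lower), and 5 (19.2%) had an unadjusted limma p under 0.05, beside 3.74% of all genes. These were Gadd45a (-0.79 ± 0.20), Trp53inp1 (0.76 ± 0.21), Ccng1 (0.81 ± 0.24), Ppm1d (0.50 ± 0.21) and Bbc3 (0.67 ± 0.29), with adjusted p from 0.269 to 1. Trp53inp1 signal was 583.3 and 435.2 in p107KO and 825 and 933.6 in DKO, and Bbc3 was 361.2 and 512 against 526.4 and 942.4. The DKO arrays were thus above the p107KO arrays for both, with Bbc3 nearly touching. At 0 h 19 of 26 members (73.1%) had the same sign as in Rb1KO minus WT, beside 58.1% of all genes.

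Averaged over the 3 times, with each time weighted equally, 4 of 26 members were called in DKO minus p107KO (7.13% of all genes, 4.49% higher and 2.64% lower). Gadd45a was lower, at -1.40 ± 0.14 (limma adjusted p = 1.71e-06), as was Mdm2, at -0.68 ± 0.19 (0.0276). Ppm1d was higher by 1.08 ± 0.15 (4.6e-05) and Polk by 0.72 ± 0.18 (0.0114). Of the 6 arrays that were left out in turn, 4 ended the Mdm2 call and none the other 3 calls. The single arrays of DKO at 24 and 48 h and of p107KO at 48 h were never left out. Mdm2 was higher in DKO at 0 h (702.3 and 720 against 621.6 and 601.4 in p107KO). It was lower at 24 h (685.4, on an array that stands apart, against 1823.8 and 2228.7) and at 48 h (2061.2 against 3438.1). The same average in Rb1KO minus WT called 6 of 26 (19.0% of all genes, 10.4% higher and 8.66% lower): Gadd45a at -0.81 ± 0.10, Ppm1d at 0.84 ± 0.11, Polk at 0.76 ± 0.13, Trp53inp1 at 0.61 ± 0.10, Bbc3 at 0.43 ± 0.15 and Mdm2 at -0.44 ± 0.13, with limma adjusted p from 4.74e-06 to 0.0424. The first 4 of these held with each of 18 arrays left out, while Bbc3 was kept in 7 of 18 (adjusted p up to 0.0995) and Mdm2 in 14 of 18 (up to 0.153). The 6 members are 23.1% of those tested, near the 19.0% of all genes. Ppm1d, Polk, Gadd45a and Mdm2 were called in the same direction in both averages. These have no array in common, but take each gene's spread from the same fit. Sharing between the averages was not counted over all genes, so it is not read as a trait of the members.

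Sorting all arrays by their Rb1 label alone gives a view without a model. At 0 h the 7 Rb1KO and DKO arrays did not overlap with the 5 WT and p107KO arrays for 5 of 26 members, against 2.37% of all genes. Ccng1, Bbc3, Trp53inp1 and Ppm1d were higher on the arrays labelled as lacking Rb1 and Gadd45a was lower. Ccng1 ran from 1036.4 to 1473.3 on the former and from 668.9 to 894.7 on the latter. At 24 h 6 members did not overlap (9.87% of all genes): Trp53inp1, Pmaip1, Ppm1d, Eda2r and Polk were higher and Gadd45a lower. At 48 h, with 3 arrays on each side, 8 did not (30.8%), a share near the 31.8% of all genes. Ppm1d and Gadd45a were on these lists at all 3 times, though narrowly at 0 h. The lowest Ppm1d signal without Rb1 was then 2440.7, against a highest of 2420.3 with it. For Gadd45a the highest without Rb1 was 4651.7, against a lowest of 4729.0 with it.

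p107 loss alone called 0 of 26 members at 0 h (0.00916% of all genes; 0 members at an unadjusted limma p under 0.05, beside 0.687% of all genes) and 0 at 24 h (0.0275% of all genes, 0.0183% higher). At 24 h 4 members (15.4%) had an unadjusted limma p under 0.05, beside 7.27% of all genes. They were Ercc5 (-0.62 ± 0.19), Ppm1d (-0.65 ± 0.21), Ei24 (-0.56 ± 0.19) and the lipid kinase Dgka (0.64 ± 0.24), with limma adjusted p from 0.452 to 0.564. Ppm1d was 1837.4 and 1839.4 in p107KO against 3257.9 and 2597.2 in WT. The members' median at 24 h was -0.20 (all genes 0.04), and 19 of 26 were negative. Intervals were wide: for Mdm2 at 24 h the change of -0.44 ran from -0.99 to 0.11.

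Adding p107 loss to Rb1 loss also called 0 of 26 at 0 h (DKO minus Rb1KO, 0.00916% of all genes), with 3 of 26 at an unadjusted limma p under 0.05, beside 3.71% of all genes. These were Trp53inp1 (-0.45 ± 0.17), Polk (-0.54 ± 0.21) and Gadd45a (-0.42 ± 0.17). Trp53inp1 in DKO, at 825 and 933.6, lay below all 5 Rb1KO arrays and above all 3 WT arrays. In DKO minus WT at 0 h it was the 1 member called (0.183% of all genes, 0.128% higher and 0.055% lower), at 0.97 ± 0.19 (limma adjusted p = 0.0204). That call was lost with any of the 5 arrays left out (up to 0.516) and with Y-linked signal as a covariate.

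The first step of culture called 12 to 18 members in each genotype. In WT, 13 of 26 rose and 2 fell in the first 24 h (38.1% of all genes changed, 15.3% upward and 22.8% downward), with a median change of 0.86 beside -0.09 over all genes. In p107KO 11 rose and 1 fell (29.3% of all genes, 11.8% upward and 17.5% downward). In Rb1KO 15 rose and 3 fell (52.2%, 20.7% upward and 31.5% downward), and in DKO, with both culture times averaged, 12 rose and 1 fell (33.1%, 14.1% upward and 19.0% downward). The 4 comparisons share no arrays in their group means, but take each gene's spread from the same fit. Aen, Bbc3, Ccng1, Eda2r, Ei24, Gadd45a, Mdm2, Sesn2 and Trp53inp1 rose in all 4 and Perp fell in all 4. Every Eda2r signal at 0 h was 48.0 or less, under the brightness threshold of 99.4. Eda2r thus passed the filter only through its cultured arrays, and its rise is not independent of the filter. Of the 13 WT and 11 p107KO rises 10 were shared (76.9% and 90.9%), and of the 13 WT and 15 Rb1KO rises 12 were (92.3% and 80.0%). Sharing was not counted over all genes, of which 29.3% to 52.2% were called in these comparisons. It is therefore not read as a trait of the members. Some of these calls rest on single arrays. In p107KO Ei24 was lost with any of the 4 arrays left out (up to 0.114), Rrm2b without p107KO 0 h replicate 2 or 24 h replicate 2 (up to 0.107) and Aen without p107KO 0 h replicate 1 (0.0608). In DKO Mdm2 was lost without either 0 h array (up to 0.144), Ppm1d likewise (up to 0.102) and Aen without 0 h replicate 2 (0.08).

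Markers of several cell types also changed with culture. Mean log2 marker levels fell from 14.03-14.58 at 0 h to 7.26-10.01 in culture for hepatocytes, from 9.8-10.37 to 6.35-7.54 for stroma and from 8.33-9.18 to 6.05-6.78 for endothelium, on all arrays. In WT all 10 hepatocyte, all 8 stromal and 7 of 8 endothelial markers fell in the first 24 h, as did 7 of 12 macrophage markers, with a median of -2.86, and 5 of 6 megakaryocyte markers. In the same step 5 of 7 erythroid, 4 of 5 mast cell, 3 of 9 neutrophil and 2 of 12 macrophage markers rose, and 1 erythroid marker fell. The part of this shift in the members' culture changes was not tested.

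**Figure D3:**
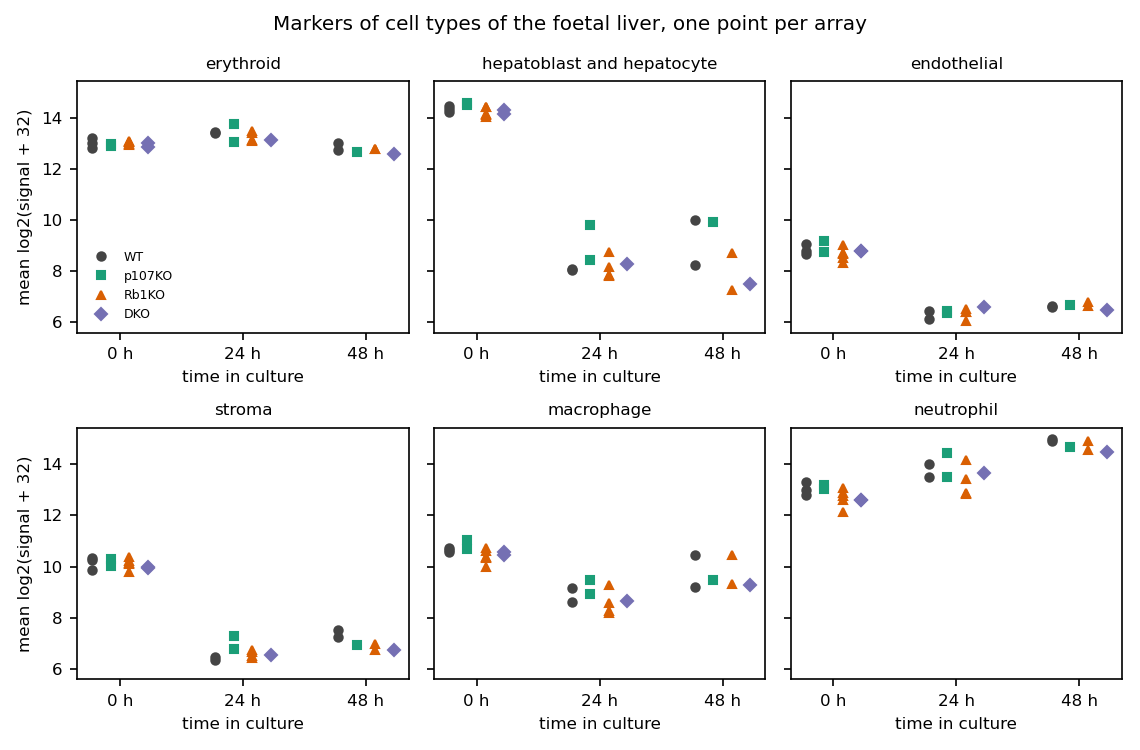
Mean log2(signal + 32) of the markers of 6 cell types (vertical axis) on each array, by culture time and genotype. Hepatocyte, endothelial and stromal markers are lower on every cultured array than on any 0 h array, and erythroid markers stay between 12.57 and 13.77.

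Among the feedback regulators, Ccng1 and Mdm2 rose. Ccng1 was 770.2, 718.7 and 894.7 in WT at 0 h, 9408.3 and 10857.5 at 24 h, and 14008.1 and 18557.9 at 48 h. The first step was 3.62 ± 0.22 (12.3-fold, limma adjusted p = 2.75e-11), and the other genotypes gave 3.37 in p107KO, 3.11 in Rb1KO and 2.45 in DKO. Mdm2 was 581.6, 521.7 and 765.6 in WT at 0 h and 2843.4 and 2656 at 24 h, a change of 2.10 ± 0.24 (4.3-fold, limma adjusted p = 4.31e-07). The change was 1.67 ± 0.27 in p107KO, 1.34 ± 0.18 in Rb1KO and 0.72 ± 0.27 in DKO, and the Rb1KO minus WT shift of -0.77 ± 0.30 did not pass the threshold (limma adjusted p = 0.302). The single DKO array at 24 h had 685.4, no higher than the DKO arrays at 0 h (702.3 and 720), and it is among the 4 arrays that stand apart. Ppm1d rose in Rb1KO (0.87 ± 0.14) and DKO (0.66 ± 0.21), and in WT gave 0.48 and in p107KO 0.06, neither past the threshold. Its Rb1KO minus WT shift from 0 h to 24 h did not pass the threshold. The DKO culture changes, here and below, average 24 and 48 h, while those of the other genotypes are at 24 h. Mdm4 was called lower in Rb1KO, from 657.5-1171.4 at 0 h to 353.3-686.1 at 24 h. These ranges overlap, and the 353.3 is flagged below as an outlier.

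Among death genes the largest rise was that of Trp53inp1. It went from 413.8-444.8 in WT at 0 h to 7000 and 8047.1 at 24 h, a change of 4.02 ± 0.19 (16.2-fold, limma adjusted p = 5.07e-13). Bbc3 rose by 2.61 ± 0.27 (6.09-fold, limma adjusted p = 7.67e-08), from 348.5-448.2 to 2537.2 and 2552.8. These 2 genes, higher in fresh Rb1KO cells, thus rose in WT culture far beyond the Rb1KO level of 0 h. Eda2r, a death receptor of the TNF receptor family encoded on the X chromosome, rose by 1.56 ± 0.29, Aen, an apoptosis-enhancing nuclease, by 1.34 ± 0.25, and Ei24 by 1.13 ± 0.18. Pmaip1, which encodes the BH3-only protein Noxa, rose in Rb1KO (1.27 ± 0.20) and gave 0.65 and 0.76 in WT and p107KO, not past the threshold. Its Rb1KO minus WT shift from 0 h to 24 h did not pass the threshold. It also rose in DKO, but that change of 1.98 ± 0.30 averages 24 and 48 h and is not set beside these. At 48 h Pmaip1 was 567.4 and 406.5 in WT, 484.8 in p107KO, 655.8 and 515.1 in Rb1KO, and 660.7 in DKO.

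Perp, a p53 target that encodes a desmosomal membrane protein of epithelia, was the death gene that fell. It was 844.6, 635.3 and 528.3 in WT at 0 h and 136.7 and 74.2 at 24 h, a change of -2.36 ± 0.42 (limma adjusted p = 0.000119). The changes in p107KO, Rb1KO and DKO were -2.42, -2.19 and -2.30. Hepatocyte, stromal and endothelial markers fell in the same step, as given above. Phlda3, an inhibitor of Akt, gave 2.08 in WT and was called in no comparison, and its arrays spread widely within groups, from 465.9 to 3407.4 in WT at 24 h.

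Among growth arrest and stress genes, Sesn2 and Gadd45a rose in every genotype and Sesn1 in none. Sesn2, a stress-induced inhibitor of mTORC1 signalling, went from 51.2, 96.4 and 92.6 in WT at 0 h to 2001.5 and 2461.4 at 24 h. Its change was 4.36 ± 0.53 (limma adjusted p = 8.17e-07), and it was 3.0 in p107KO, 3.52 in Rb1KO and 2.84 in DKO. The WT signals at 0 h lie below the brightness threshold of 99.4, so the size of this change depends on the offset of 32. Sesn1, its p53-induced relative whose promoter holds the decamer shown above, was 1895.4, 1982 and 1651.6 in WT at 0 h and 2542.8 and 2128.8 at 24 h, and was called in none of the 18 comparisons. Gadd45a rose by 2.40 ± 0.19 in WT (5.27-fold, limma adjusted p = 1.13e-09), from 4903.7-5737.4 to 26597 and 30138.7, and by 1.46 ± 0.14 in Rb1KO. Btg2, an antiproliferative cofactor of mRNA decay, rose by 1.16 in both WT and Rb1KO, and the WT call was lost without WT 24 h replicate 1 (0.142).

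Among repair genes the changes were smaller and mixed. Polk rose by 1.10 ± 0.23 in WT, 1.23 ± 0.17 in Rb1KO and 1.72 ± 0.25 in DKO. Rrm2b, the p53-induced subunit of ribonucleotide reductase, rose in WT (1.07 ± 0.26; lost without WT 24 h replicate 1, 0.0699) and p107KO (1.00 ± 0.29), and gave 0.11 in Rb1KO, with a shift against WT of -0.96 ± 0.32 that did not pass the threshold (limma adjusted p = 0.2). Ddb2, which recognises ultraviolet damage, fell in WT (-0.75 ± 0.27, limma adjusted p = 0.0311), a call lost without 3 of the 5 arrays in turn. Xpc, another damage recognition factor, passed the threshold in no genotype in the first step (-0.07 in WT).

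**Figure D4:**
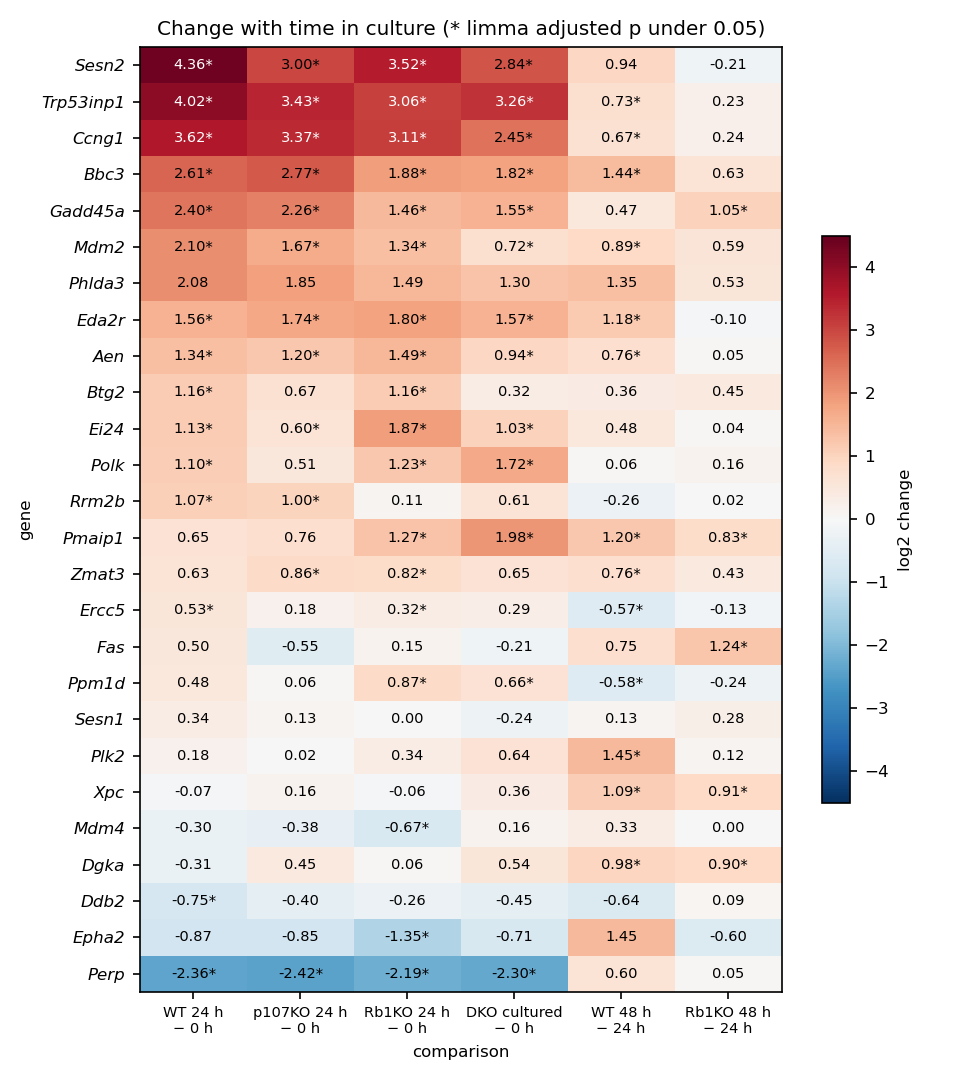
Log2 change with time in culture (colour and printed value) for each tested member (rows) in 6 comparisons (columns), with a star for limma adjusted p under 0.05. Sesn2, Trp53inp1, Ccng1, Bbc3 and Gadd45a are starred and red in the first 4 columns, and Perp is starred and blue in the same 4.

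From 24 to 48 h 11 of 26 members rose and 2 fell in WT (25.4% of all genes changed, 13.4% upward and 12.1% downward), with a median of 0.74 beside 0.03. This step shares the 24 h arrays with the first, and rests on 2 arrays against 2. Bbc3 rose by a further 1.44 ± 0.29 (limma adjusted p = 0.0012) and held with each of the 4 arrays left out. Plk2, a stress-induced polo-like kinase, rose by 1.45 ± 0.36, Pmaip1 by 1.2 ± 0.30, Eda2r by 1.18 ± 0.32, Xpc by 1.09 ± 0.25 and Dgka by 0.98 ± 0.24, each lost with 1 or 2 of the arrays left out. Those that fell were Ppm1d (-0.58 ± 0.21, limma adjusted p = 0.0459), lost without WT 24 h replicate 1 or 2 or WT 48 h replicate 1 (up to 0.3), and the repair nuclease Ercc5 (-0.57 ± 0.19, 0.0323), lost with any of the 4 arrays left out (up to 0.167). The count ran from 4 to 10 when WT arrays were left out in turn. Markers rose in this step for megakaryocytes (6 of 6, median 1.85), neutrophils (6 of 9), macrophages (5 of 12), stroma (4 of 8) and hepatocytes (3 of 10), and 3 of 7 erythroid markers fell. Their part in the members' changes was not tested.

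In Rb1KO the same step raised 5 of 26 and lowered 0 (21.1% of all genes, 13.5% upward and 7.56% downward). These were the death receptor Fas (1.24 ± 0.43), Gadd45a (1.05 ± 0.18), Xpc (0.91 ± 0.21), Dgka (0.90 ± 0.21) and Pmaip1 (0.83 ± 0.26). Gadd45a held with each of 6 arrays left out and Fas with 1 of 6. Gadd45a in Rb1KO thus rose in both steps, from 3669.6-4651.7 at 0 h to 10044.4-12797 at 24 h and 23085.2 and 24234.4 at 48 h, and at 48 h was still below the 24 h level of WT. Markers of megakaryocytes (6 of 6), macrophages (9 of 12), neutrophils (7 of 9) and mast cells (3 of 5) rose in this step, and 5 of 7 erythroid markers fell. Their part was not tested.

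**Figure D5:**
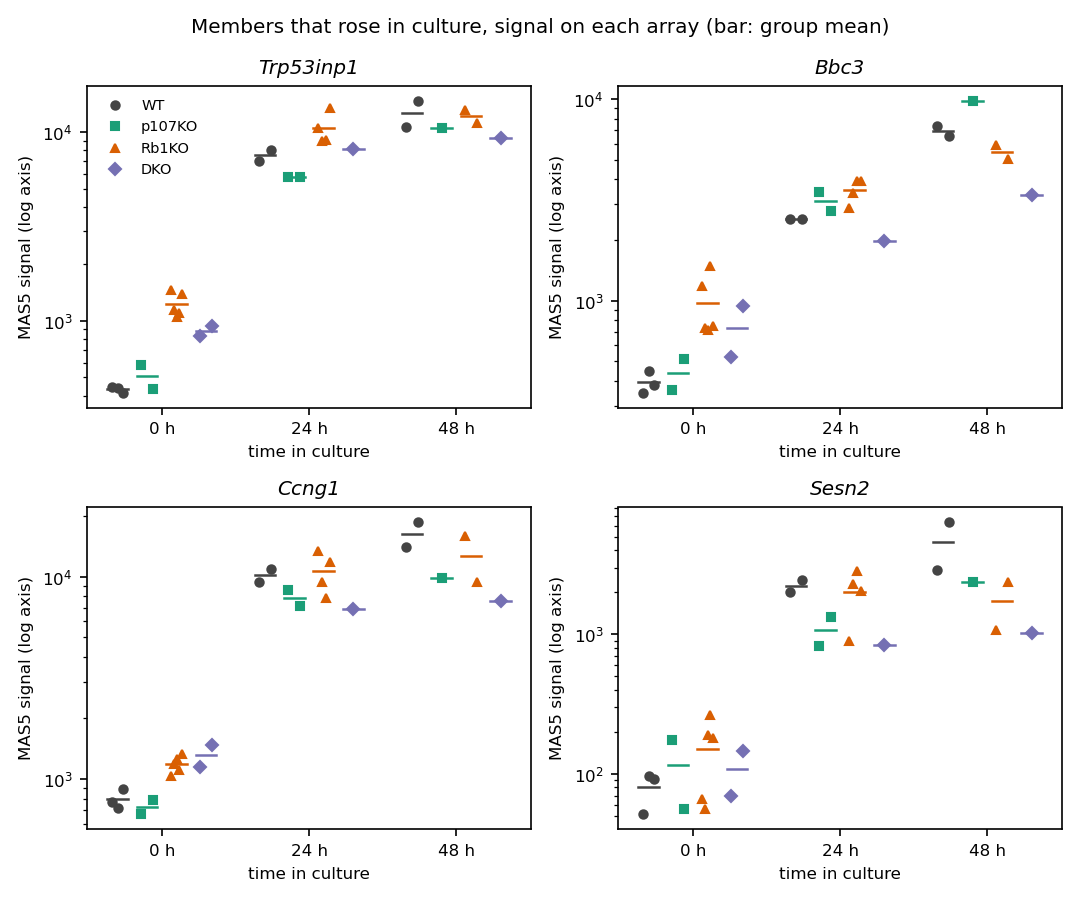
MAS5 signal of Trp53inp1, Bbc3, Ccng1 and Sesn2 on each array (vertical log axis) by culture time, with points coloured by genotype and bars at group means. All 4 genes are higher on every cultured array than on any 0 h array, and at 0 h Trp53inp1, Bbc3 and Ccng1 are higher on the Rb1KO and DKO arrays.

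A further list of 28 p53 targets outside the members, 22 of them tested, was examined for the wider pathway. This list, like the members, was chosen with earlier results of these data known. In Rb1KO minus WT it had 1 member higher at 0 h, 3 higher at 24 h and 1 higher at 48 h, and none lower. These are 4.55%, 13.6% and 4.55% of the list, beside 0.614%, 7.77% and 10.4% of all genes. Its median log2 change was 0, 0.28 and -0.01 at these times, beside -0.04, -0.07 and -0.09 over all genes. In the first 24 h of WT culture 5 of the 22 rose and 4 fell, 40.9% of the list beside 38.1% of all genes, with a median of 0.20 beside -0.09. The 0 h gene was Cdkn1a, which encodes the cell cycle inhibitor p21. Its signal was 198.3 to 206.5 in WT, 340.7 to 780.4 in Rb1KO, 148.6 and 201.8 in p107KO and 650.3 and 672.8 in DKO. The change was 1.29 ± 0.21 in Rb1KO minus WT (limma adjusted p = 0.00183) and 1.75 ± 0.29 in DKO minus p107KO (0.00479), and by 48 h it was -0.13 ± 0.29, a shift of -1.43 ± 0.36 (0.0239). Cdkn1a rose by 5.77 ± 0.26 in WT culture in 24 h. Siva1, which promotes apoptosis, was higher in Rb1KO at 24 h (1.05 ± 0.26) and 48 h (1.31 ± 0.30), and Ckap2 and Hexim1 were higher at 24 h.

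Of 19 upstream regulators of p53, 17 were tested. Their median change in Rb1KO minus WT was 0.06, -0.13 and 0.01 at 0, 24 and 48 h, with 1, 2 and 1 genes higher and 0, 1 and 0 lower, or 5.88%, 17.6% and 5.88% of the list beside 0.614%, 7.77% and 10.4% of all genes. Sirt1, the deacetylase that acts on p53, was higher in Rb1KO than WT at 0 h (0.79 ± 0.17), 24 h (0.67 ± 0.20) and 48 h (1.21 ± 0.23), with limma adjusted p of 0.0267, 0.0434 and 0.00112. At 24 h Nqo1, a quinone reductase, was also higher (0.92 ± 0.24) and Npm1, nucleophosmin, lower (-0.65 ± 0.19). From 24 to 48 h in WT 0 rose and 6 fell, 35.3% of the list beside 25.4% of all genes. Usp7, the deubiquitinase of Mdm2 and p53, fell by 1.33 ± 0.16, Trp53bp1, a p53-binding DNA damage protein, gave -1.46 ± 0.23, and the checkpoint kinases Chek1 and Chek2 gave -1.11 ± 0.26 and -0.73 ± 0.18.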

How the data were processed

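The labels place 27 arrays in 12 groups of genotype and culture time. The values deposited by the authors are linear MAS5 signal intensities, for which the submitters' processing notes list GCOS 1.4, and the 2% trimmed mean of every array lay between 491.9 and 497.7. Of 45037 probe sets, 34945 carried 1 gene symbol, 932 several and 9160 none, and 34741 were matched through Entrez identifiers to GRCm38.p6 names. The brightest probe set stood for a gene, the lowest 40% of 18193 genes by mean signal were left out, and log2(signal + 32) was fitted with limma 3.58.1 in R 4.3.3. The offset of 32 pulls the folds of dim genes toward 0. The fit had 1 mean per group, a trended prior (7.14 prior and 15 residual degrees of freedom), and Benjamini-Hochberg adjustment over 10916 genes per comparison, two-sided, threshold 0.05. Groups of 1 array borrow the spread of the others. The probe sets of a gene were compared separately. All members may be named, with Rb1, Rbl1, Cdkn1a and up to 4 genes of each further list in a comparison, by smallest adjusted p. The members and lists were chosen with earlier results of these data known. Arrays have no read depth, and their number limits the precision. The code was tested on simulated data. Figures used matplotlib 3.10.9 in Python 3.11.15.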

Additional observations from a re-analysis of the deposited data

Results flagged for a closer look

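In groups of 4 or 5 arrays 3 member signals stood apart from the rest of their group by Dixon's ratio, among 56 member and group pairs examined, where chance flags about 1 in 20. Mdm4 was 353.3 on Rb1KO 24 h replicate 1, an array that also stands apart over all genes, against 637.9 to 686.1 on the other 3. Ddb2 was 208.0 on Rb1KO 0 h replicate 5, also an array that stands apart, against 352.3 to 432.9. Plk2 was 316.6 on Rb1KO 0 h replicate 1 against 149.5 to 175.7. The Rb1KO minus WT difference shifted with culture time for 2 members by the test of the interaction itself in limma. Trp53inp1 shifted by -0.96 from 0 h to 24 h and by -1.47 from 0 h to 48 h, and Bbc3 by -1.53 from 0 h to 48 h.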

How the results depend on the processing

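Alternatives were run for the members and not for the further gene lists. An array that was the only one of its group (DKO 24 h, DKO 48 h and p107KO 48 h) was never left out in turn. Of 100 member changes past the threshold, 1765 alternatives were run, of which 1549 kept direction and threshold, 216 lost the threshold and 0 reversed. The count of members called moved as follows, with the cause not tested. Shares of all genes called under these settings are not given here, so a moved count is not a result about the members. In Rb1KO minus WT at 0 h and 24 h the fit on the compared groups alone called 1 each (reported 2 and 4), and at 48 h leaving out the Y-positive arrays called 1 (reported 4). For the shift from 0 h to 24 h (reported 1) the count was 0 with a pseudocount of 100, no filter, the mean of probe sets, Y-linked signal as a covariate or without the Y-positive arrays, and 2 with the 60% filter, quantile normalization or array weights. For the shift to 48 h (reported 2) it was 4 with array weights, 0 without the Y-positive arrays and 5 without the 4 arrays apart. In DKO minus p107KO at 0 h (reported 0) it was 1 with quantile normalization, 3 with array weights and 1 without the 4 arrays apart. In DKO minus WT at 0 h (reported 1) it was 2 with quantile normalization, without the 4 arrays apart or on the compared groups alone, 4 with array weights, and 0 with the mean of probe sets or the Y covariate. In WT from 24 to 48 h (reported 13) it was 8 with no filter, the 60% filter or without the Y-positive arrays, and in Rb1KO (reported 5) it was 3 with no filter, array weights or the compared groups alone and 2 with the 60% filter. With arrays left out in turn the counts ran from 1 to 3, 1 to 4 and 1 to 2 in Rb1KO minus WT at 0, 24 and 48 h, from 0 to 1 and 1 to 4 for the shifts to 24 and 48 h, from 4 to 7 for Rb1KO minus WT and 3 to 5 for DKO minus p107KO over all times, 0 to 0 in DKO minus WT, 13 to 15 and 4 to 10 for the WT culture steps, 16 to 18 and 1 to 6 for those of Rb1KO, 9 to 11 in p107KO culture and 10 to 11 in DKO culture.

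The replicate number was checked as a block. Of 21 same-numbered pairs 7 had correlated deviations over 0.1 (r from -0.15 to 0.42). The first replicates of p107KO and Rb1KO reached 0.42 at 0 h and 0.31 at 24 h. The highest r of a different-numbered pair was 0.28, between p107KO 0 h replicate 2 and Rb1KO 0 h replicate 3. The main fit took the arrays as unpaired, and these values do not settle whether same-numbered arrays belong together. With the block the shift from 0 h to 24 h called 0 members.

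Precision is limited by groups of 1 or 2 arrays, by WT having no and DKO only arrays with Y-linked signal, and by signals near background for the dim members Eda2r, Fas and Epha2 and for Sesn2 at 0 h. Detection calls were not used here. Arrays labelled as lacking Rb1 at 48 h carried Rb1 signal close to WT.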
